A study of Mus musculus with 12 samples.

Results

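The genes of the constitutive proteasome were described in RNA-seq of dendritic cells grown from mouse bone marrow (BMDC). Members were chosen by symbol as protein-coding genes of the Psma to Psmg series, without the 3 catalytic subunits of the immunoproteasome and without pseudogenes, with a mean expected count of at least 10 over the 12 libraries. Of 54 symbols that match the series, 46 were members among the 55335 genes listed, and 3 immunoproteasome genes, 4 pseudogenes and Psmb11, a thymus subunit with a mean of 0.75 counts, were left out. The lowest members were Psmc3ip, with a mean of 15.7 counts, and Psma8, with 17.2. The 46 comprised 8 alpha and 7 beta subunits of the 20S core, 9 base and 8 lid subunits of the 19S cap, 5 activators or inhibitors, 3 chaperones of the base, 4 chaperones of the core, and 2 genes without a role here. Those last 2 were Psmc3ip, a meiotic recombination factor that shares only the symbol, and Psme2b, a near copy of Psme2.

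The cells came from C57BL/6 mice with the CreER transgene and an intact Ctcf gene, were grown for 6 days with GM-CSF with fresh medium every 2 days, and form the WT of the study, whose Ctcf-deficient arm was not analysed here. By the study's methods the mice were young adults of both sexes and CD11c-positive cells were selected, so all 4 groups share the transgene and that selection. The methods give 4-hydroxytamoxifen on the first day of culture for deleting Ctcf, and whether these cultures received it is not stated. WT received neither agent, WTL received lipopolysaccharide (LPS, from the bacterial outer membrane) at 100 ng/ml for 3 h, WT + JSH23 received JSH-23, which blocks nuclear entry of the NF-κB subunit RelA, at 100 µM for 3 h, and WTL + JSH23 received both, JSH-23 before LPS. Each group had 3 libraries, and whether the groups without JSH-23 were given its solvent is not stated. Whether JSH-23 stayed on during LPS is not given in the study's methods, so total exposure may differ between the JSH-23 groups.

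As background, the 26S proteasome degrades proteins tagged with ubiquitin. The 20S core is a barrel of alpha and beta rings with the catalytic sites of Psmb5, Psmb6 and Psmb7 inside, and the 19S cap binds, unfolds and de-ubiquitinates substrates and opens the gate. In dendritic cells interferon-inducible subunits, Psmb8, Psmb9 and Psmb10, can replace those catalytic subunits, and the peptides produced are loaded on MHC class I.

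Total expected counts per library ran from 24664724 to 34837847, and no replicates of a group were as alike as counting alone would make them, since their chi-square per degree of freedom lay between 2.48 and 10.6. WTL + JSH23 replicate 3 stood apart, with 9.50 and 10.6 against the other libraries of its group, while all other pairs were at 5.14 or below. Summed TPM of the 6 dendritic cell markers was between 16094 and 18505 in every library. That of the 3 B cell and the 3 T cell markers was at most 1.24. Of the 5 neutrophil markers only Elane was under 1 TPM in every library. Summed TPM of the 5 macrophage markers was 1100 to 1144 in WT, 676 to 735 in WTL, 928 to 957 in WT + JSH23 and 734 to 749 in WTL + JSH23, and that of the 5 neutrophil markers was 149 to 198 over all libraries. The part of these shifts in the results below was not tested, and in bulk RNA fewer cells of a type and less RNA per cell cannot be told apart. The LPS response was present, since Il6 rose by a log2 fold change of 5.93 and Tnf by 4.22 in WTL. It remained after JSH-23, where Il6 rose by 4.72 and Tnf by 5.30 in WTL + JSH23 against WT + JSH23. In WTL + JSH23 against WTL, Il6 changed by -0.59 and Tnf by -0.73. With JSH-23 alone, Il6 changed by 0.63 and Tnf by -1.81.

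Proteasome genes were expressed at high and graded levels in unstimulated cells. On TPM, which is scaled per transcript length, the 31 ubiquitous core and cap subunits (all except Psma8) ranged in WT from 43.3 for Psmd12, a lid subunit, to 293.5 for Psmb6, the caspase-like catalytic subunit. The 7 ubiquitous alpha subunits had a median of 248.8 TPM and the 7 beta subunits one of 145.5, against 95.3 for the 9 base and 76.5 for the 8 lid subunits. The 3 lowest, Psmd12, Psmd3 and Psmc6, an ATPase of the base, belonged to the cap, and of the 7 highest all but Psmd8 belonged to the core. Psme2, a subunit of the interferon-inducible PA28 activator, stood far above its partners in the particle at 1493 TPM, whereas the inhibitor Psmf1 was at 28.1. Of the chaperones, which assemble the particle and are not part of it, Psmg2 was lowest at 8.33 TPM. Psma8, a testis-specific alpha subunit, was at 0.17 to 2.17 TPM in all 12 libraries.

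The sum over all 46 genes took between 0.448% and 0.492% of the counts of a library. It was 0.448% to 0.450% of the counts in WT, 0.449% to 0.460% in WTL, 0.465% to 0.492% in WT + JSH23 and 0.465% to 0.479% in WTL + JSH23. On counts the ranges of WT and WTL overlapped, as did those of the JSH-23 groups, and both JSH-23 groups lay above both others. On TPM the share was 0.680% to 0.699% in WT and 0.713% to 0.717% in WTL, without overlap. It was 0.683% to 0.720% in WT + JSH23 and 0.704% to 0.726% in WTL + JSH23, and both of these overlapped WTL. The order of the groups thus depended on the measure. With library totals alone the median of all 14357 genes tested was -0.38 on the log2 scale in WTL against WT, and with TMM scaling, which sets a trimmed average of all genes to no change, it was -0.05. Fold changes below are on the TMM scale, and so relative to the bulk of genes, unless library totals are named.

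To examine the effect of LPS, WTL was compared with WT. Of the 46 genes, 35 were higher and 2 were lower at adjusted p under 0.05, where 31% of all genes tested were higher and 34.7% lower. The shares of all genes, here and below, are not matched to the expression of the members. Among genes with a mean of at least 1 CPM they were 34.2% and 38.8% in this comparison. The members' median log2 fold change was 0.30, against -0.05 for all genes. All WTL libraries lay above all WT libraries for 35 members and 32.7% of all genes, and below them for 4 members and 37.2%. The shares of all genes were 28.9% and 30.2% for LPS after JSH-23 and 24.4% and 27.1% for JSH-23 alone. They were 27.9% and 27% for JSH-23 under LPS, so groups without overlap were common, and such separation is given below as a description. All 7 beta subunits, 7 of 8 alpha subunits, 8 of 9 base subunits and 8 of 8 lid subunits were higher, and Psmc1 (0.02 ± 0.04 SE), an ATPase of the base, was the only cap subunit that was not. Most changes were small. By more than 1.3-fold 14 members (30.4%) rose, where 18.4% of all genes did, and 1 (2.17%) fell, where 25.3% did.

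This direction depended on the scaling. With library totals alone the members' median became -0.03, and 9 genes were higher and 14 lower, while on log2(TPM + 1) tested with limma 7 were higher and 16 lower. The median of the members minus that of all genes stayed at 0.35 under TMM, DESeq2 and upper quartile factors and library totals, and was 0.22 on TPM. The 7 genes higher under every one of the 5 scalings were Psma2, Psma6, Psmb4, Psmb6, Psmb7, Psmd11 and Psmd14, and Psmd5 and Psmg2 were lower under all 5.

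Psma6, a subunit of the alpha ring, had the largest LPS change of the members. Its values were 112, 110 and 108 CPM (counts scaled to a common library size with TMM factors) in WT, 270, 270 and 241 in WTL, 119, 108 and 117 in WT + JSH23, and 188, 192 and 196 in WTL + JSH23. The WTL libraries were the highest, the WTL + JSH23 libraries lay between, and neither overlapped the groups without LPS. The log2 fold change with LPS was 1.24 ± 0.05 (SE; adjusted p = 1.36e-15, edgeR), or 2.37-fold. On TPM it went from 227.7 to 423.9 on average, so that Psma6 passed every other alpha subunit. In the GENCODE annotation of mm10, Psma6 (chromosome 12, 55384222 to 55418454, plus strand) and Nfkbia, which encodes the NF-κB inhibitor IκBα, are neighbours 71.0 kb apart with 0 protein-coding genes between them.

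Psmb6 was second among the members, with 95.7, 101 and 98.3 CPM in WT, 166, 171 and 164 in WTL, 129, 124 and 137 in WT + JSH23, and 179, 187 and 213 in WTL + JSH23. Every treated library exceeded every WT library, and WTL + JSH23 was highest. The LPS change was 0.77 ± 0.05 (adjusted p = 4.75e-11). The other catalytic subunits moved less, Psmb7 (trypsin-like) by 0.48 ± 0.04 and Psmb5 (chymotrypsin-like) by 0.22 ± 0.04, and the change of Psmb5 turned to -0.11 with library totals.

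In the cap, Psmd14, the de-ubiquitinating enzyme of the lid, and Psmd11, a lid subunit that stabilizes the joint of core and cap, changed most. Psmd14 had 59.3, 62.3 and 62.2 CPM in WT and 92.4, 88.9 and 85.5 in WTL, without overlap, a log2 fold change of 0.54 ± 0.05 (adjusted p = 1.7e-09). Psmd11 had 72.0, 73.1 and 74.7 CPM in WT and 107, 105 and 102 in WTL, again without overlap, and rose by 0.52 ± 0.05 (adjusted p = 1.17e-08). The ubiquitin receptor Psmd4 changed by 0.34 ± 0.05.

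Of the base and core chaperones, 2 were higher with LPS, 2 were lower and 3 did not pass. Psmd5, which holds ATPases of the base during assembly, had 34.5, 34.9 and 33.4 CPM in WT and 28.7, 28.8 and 27.8 in WTL, every WTL library below every WT library, and fell by 0.27 on the log2 scale (SE 0.05, adjusted p = 0.000138). Psmg2, which with Psmg1 guides assembly of the alpha ring, fell by 0.41 (SE 0.13, adjusted p = 0.00775) from 4.25, 3.58 and 4.38 CPM to 2.94, 3.30 and 2.90. Psmg1 (-0.32 ± 0.14, adjusted p = 0.0507) and Psmg3 (-0.22 ± 0.10, adjusted p = 0.0604) did not pass. Without WTL + JSH23 replicate 3 or without WTL replicate 4, 4 members were lower instead of 2. Psmg4, the partner of Psmg3, was higher by 0.36 ± 0.07 and the base chaperone Psmd10 by 0.37 ± 0.05, whereas Psmd9 (-0.20 ± 0.09) did not pass.

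Among the regulators of the core, Psme1 and Psme2 of the PA28 activator rose by 0.30 ± 0.04 and 0.44 ± 0.04, and Psme3, the nuclear member of that family, by 0.25 ± 0.04, with Psme1 at -0.03 and Psme3 at -0.08 under library totals. Psme4, the PA200 activator (-0.08 ± 0.04, adjusted p = 0.0829), and Psmf1 (0.05 ± 0.05, adjusted p = 0.376) did not pass.

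**Figure D1:**
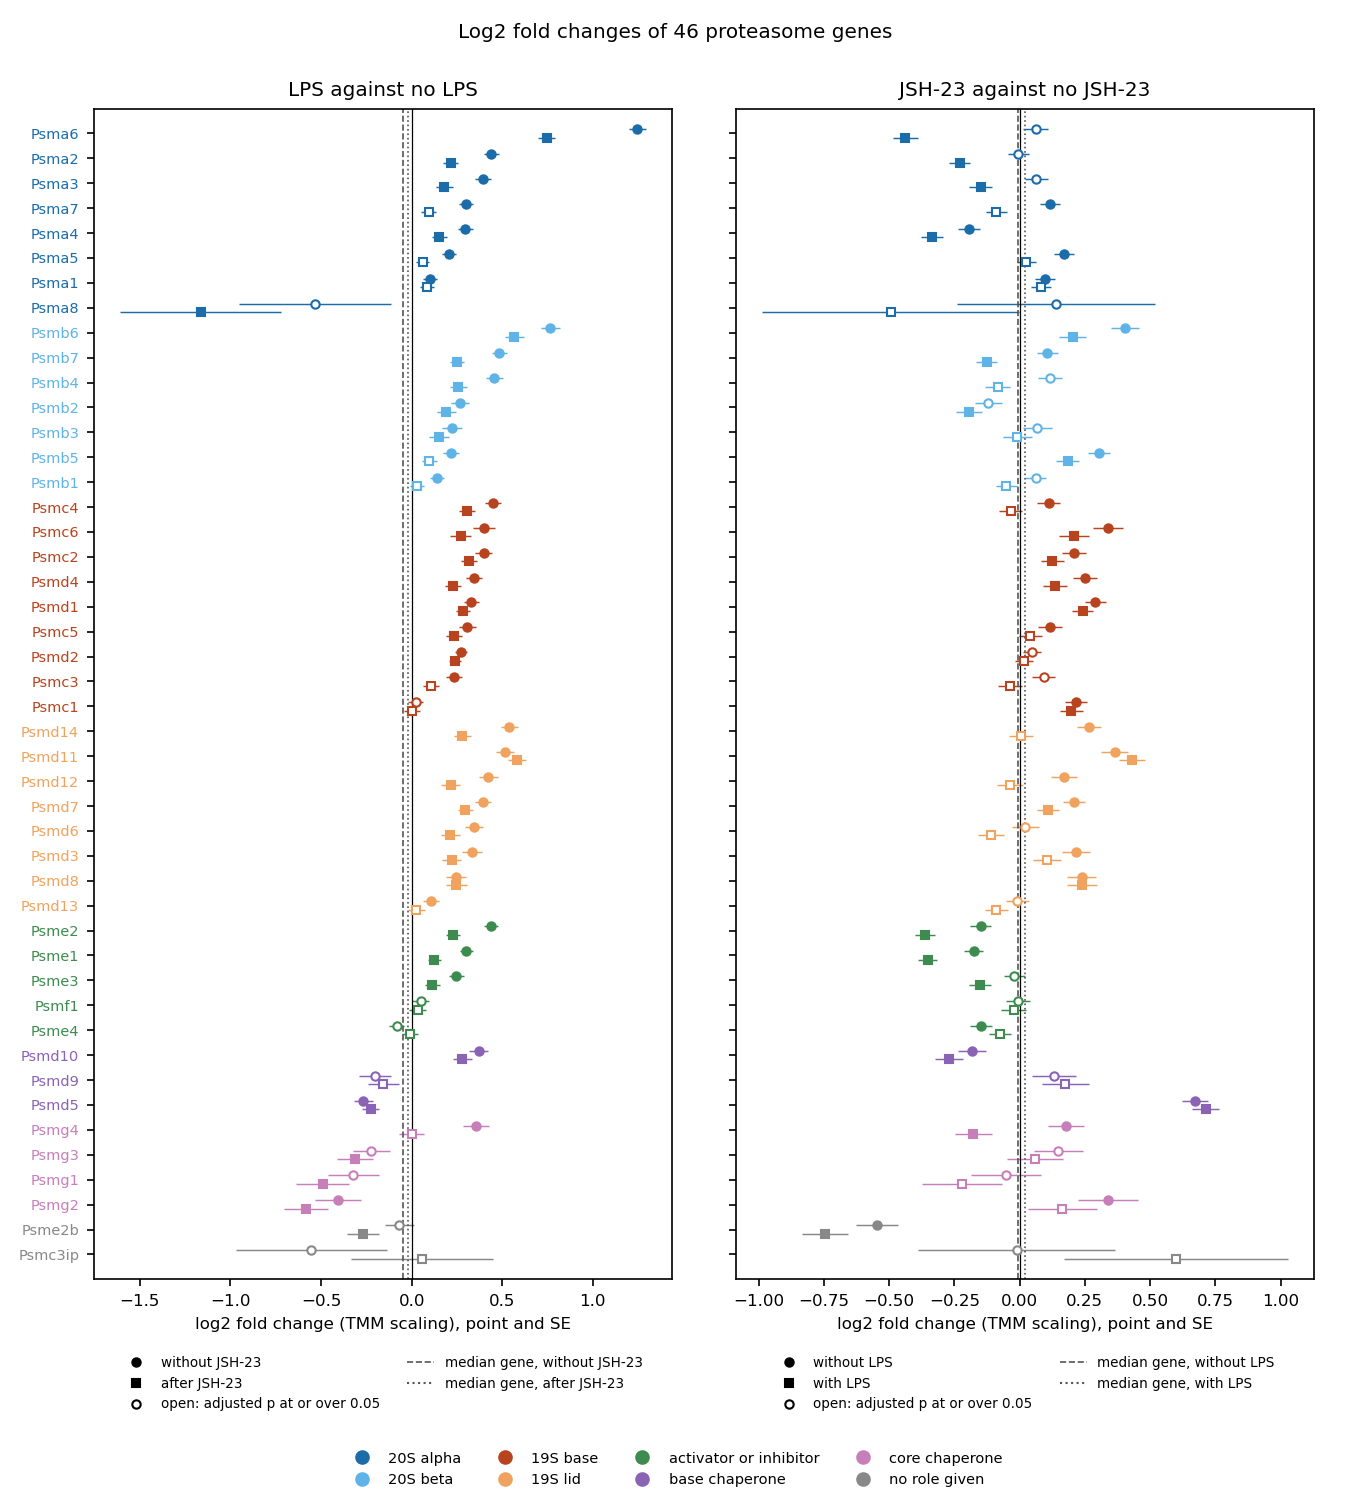
Log2 fold change of each of the 46 genes on the TMM scale with its standard error, coloured by role, for LPS (left) and JSH-23 (right). Filled symbols passed adjusted p under 0.05, and the vertical dashed and dotted lines give the median of all genes, which lies between -0.05 and 0.02. Core and cap subunits other than Psma8 sit to the right of it in the left panel, with Psma6 farthest at 1.24, and Psmd5 stands out at 0.67 and 0.71 in the right panel.

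The same question was asked after JSH-23, by comparing WTL + JSH23 with WT + JSH23, which share no library with WT and WTL. There 27 members were higher and 6 lower, where 27.4% of all genes were higher and 27.1% lower. The members' median was 0.17 against -0.02 for all genes, and it was 0.13 without WT + JSH23 replicate 2. Of the cap, 7 of 9 base and 7 of 8 lid subunits were higher, and of the core 4 of 8 alpha and 5 of 7 beta subunits. With library totals 3 members were higher and 20 lower, and the median was -0.07.

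Psma6, Psmb6 and Psmd11 were the 3 members higher by more than 1.3-fold after JSH-23, where 15.1% of all genes were, with 3 lower by as much (17%), and also the 3 higher under all 5 scalings. Psma6 changed by 0.74 ± 0.05 (adjusted p = 1.67e-11), Psmb6 by 0.57 ± 0.05 (adjusted p = 8.38e-09) and Psmd11 by 0.58 ± 0.05 (adjusted p = 1.94e-09). Psmc2, an ATPase of the base, followed with 0.32 ± 0.05. The 6 lower genes, lower under all 5 scalings too, were Psma8, Psme2b, Psmd5 (-0.23 ± 0.05) and the core chaperones Psmg1 (-0.49 ± 0.15), Psmg2 (-0.58 ± 0.12) and Psmg3 (-0.31 ± 0.10). Psmg2 went from 5.07, 5.43 and 4.93 CPM to 3.72, 3.38 and 3.15, with no overlap, whereas Psma8 had at most 1.32 CPM in any library. Psme2b lost the call in 3 of the 12 fits that leave out a library (highest adjusted p of 0.114, edgeR), and its change was smallest without WTL + JSH23 replicate 3 (-0.15). Psmg1 had a highest adjusted p of 0.0558 and Psmg3 one of 0.0669 with a library left out, and Psme2b shares reads with Psme2.

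Promoters are shown for Psma6, Psmb6 and Psmd11, chosen because they rose by more than 1.3-fold at adjusted p under 0.05 in both LPS comparisons. They were also the members higher under all 5 scalings in both. The windows run from 250 bases before to 50 bases after the RefSeq start on build GRCm38.p6, 5′ to 3′ on the plus strand. Capitals mark a match to the κB motif of NF-κB in Psma6 and Psmd11 and to TGACNNNGC, the core of the antioxidant response element bound by Nrf1 and Nrf2, in Psmb6. The windows are Psma6 chr12:55398575-55398874, Psmb6 chr11:70525107-70525406 and Psmd11 chr11:80428365-80428664.
Psma6: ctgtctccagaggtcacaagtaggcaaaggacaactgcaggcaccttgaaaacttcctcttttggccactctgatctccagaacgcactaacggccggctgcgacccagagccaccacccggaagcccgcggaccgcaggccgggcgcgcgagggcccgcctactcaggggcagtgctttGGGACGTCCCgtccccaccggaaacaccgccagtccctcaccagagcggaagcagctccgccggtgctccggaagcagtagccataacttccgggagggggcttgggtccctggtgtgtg
Psmb6: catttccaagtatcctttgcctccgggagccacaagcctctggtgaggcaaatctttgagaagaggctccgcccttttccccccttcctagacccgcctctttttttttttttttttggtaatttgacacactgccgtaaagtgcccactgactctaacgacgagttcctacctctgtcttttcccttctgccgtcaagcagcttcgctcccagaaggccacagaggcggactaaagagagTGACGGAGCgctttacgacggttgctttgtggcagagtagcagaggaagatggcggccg
Psmd11: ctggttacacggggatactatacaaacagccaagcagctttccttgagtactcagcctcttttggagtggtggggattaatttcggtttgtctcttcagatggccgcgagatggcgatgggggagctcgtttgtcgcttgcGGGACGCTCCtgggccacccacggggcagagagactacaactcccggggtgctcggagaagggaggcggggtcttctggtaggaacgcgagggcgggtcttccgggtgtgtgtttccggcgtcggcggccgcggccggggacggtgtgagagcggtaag
The match lay at positions -70 to -61 from the start in Psma6, -9 to -1 in Psmb6 and -109 to -100 in Psmd11. Psma6 has another annotated start upstream, whose window held neither motif. Both strands were searched for these motifs and for CCAAT, the NF-Y box, in the RefSeq windows of 38 of the 46 members and of 27025 genes in all. The κB motif occurred in 6 members (15.8%) and 9.6% of all genes, TGACNNNGC in 6 (15.8%) and 14.0%, and CCAAT in 13 (34.2%) and 41.1%. The other members with a κB match were Psma7, Psmd12, Psmd13 and Psme4, and those with TGACNNNGC were Psmb5, Psmc6, Psmd9, Psmd12 and Psme4. Of these, Psmd9 and Psme4 did not pass in WTL against WT. A match describes letters in the window and is no evidence of binding.

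**Figure D2:**
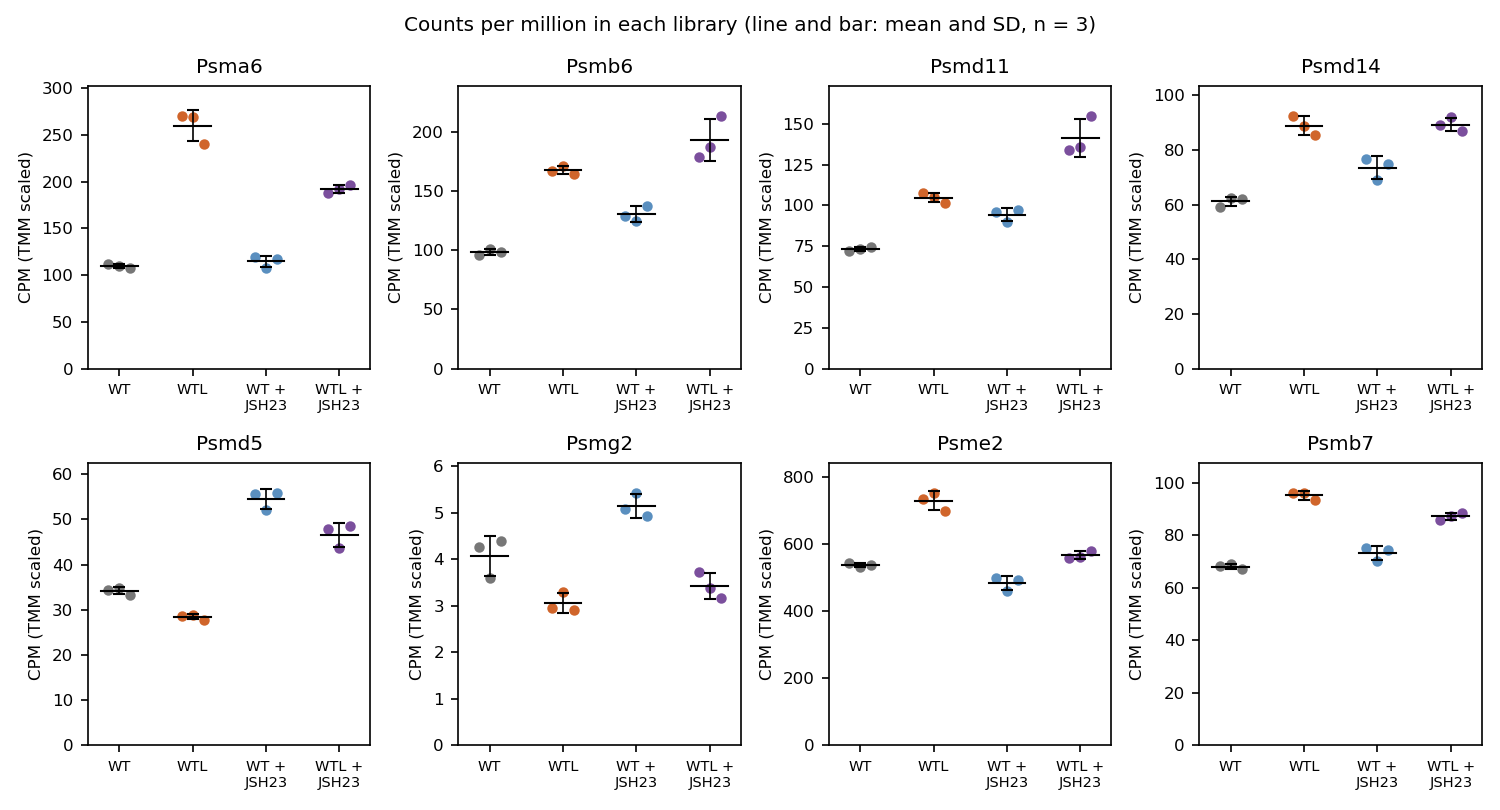
CPM of 8 members in each of the 12 libraries (points), with mean and SD of each group of 3. Psma6 is highest in WTL (241 to 270 CPM), Psmb6 and Psmd11 are highest in WTL + JSH23 (179 to 213 and 134 to 155), Psmd5 is highest in the JSH-23 groups, and Psmg2 is lower with LPS on either background.

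JSH-23 alone was examined by comparing WT + JSH23 with WT. Of the members 22 were higher and 6 lower, where 18.8% of all genes were higher and 22.1% lower, and the median was 0.11 against -0.01 for all genes. Only 2 members rose by more than 1.3-fold, where 8.69% of all genes did, and 1 fell by as much, where 11% did. Over the 5 scalings 18 of the 22 higher and all 6 kept their call. Of the cap 13 of 17 subunits were higher, and of the core 6 of 15.

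The largest rise was that of Psmd5, from 34.5, 34.9 and 33.4 CPM in WT to 55.7, 52.1 and 55.9 in WT + JSH23, with a wide gap between the groups. It rose by 0.67 ± 0.05 (adjusted p = 2.82e-10), while LPS lowered it. Psmb6 followed with 0.40 ± 0.05 (adjusted p = 2.45e-06), then Psmd11 with 0.36 ± 0.05 and Psmc6 with 0.34 ± 0.06. The other catalytic subunits were at 0.30 ± 0.04 (Psmb5) and 0.11 ± 0.04 (Psmb7, adjusted p = 0.0366, up to 0.135 with a library left out). Psmd14 rose by 0.26 ± 0.05, Psmd4 by 0.25 ± 0.05 and Psmg2 by 0.34 ± 0.11 (adjusted p = 0.0217, up to 0.118 with a library left out). Psmg4 (0.18 ± 0.07, adjusted p = 0.0462) lost the call in 6 of 12 such fits.

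The lower genes were Psme2b (-0.55 ± 0.08), the alpha subunit Psma4 (-0.19 ± 0.04), Psmd10 (-0.18 ± 0.05, adjusted p = 0.0700 without WT + JSH23 replicate 2), Psme1 (-0.18 ± 0.04), Psme2 (-0.15 ± 0.04) and Psme4 (-0.15 ± 0.04). Psme1 had 322, 323 and 326 CPM in WT and 290, 278 and 291 in WT + JSH23, with no overlap. Both PA28 subunits were thus lower in a comparison in which 13 of 17 cap subunits were higher.

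JSH-23 under LPS was examined by comparing WTL + JSH23 with WTL. There 11 members were higher and 12 lower, shares of 23.9% and 26.1%, which are near the background of 24.5% of all genes higher and 24.2% lower. The median was -0.03 against 0.02 for all genes. In the core 2 of 15 subunits were higher and 6 lower, and in the cap 8 of 17 were higher and 0 lower, and the difference between core and cap was not itself tested. With library totals 18 were higher and 7 lower, and the median was 0.10. The 9 genes higher under all 5 scalings were the beta subunits Psmb5 and Psmb6, the cap subunits Psmc1, Psmc6, Psmd1, Psmd4, Psmd8 and Psmd11, and Psmd5. The 6 lower under all 5 were Psma4, Psma6, Psmd10, Psme1, Psme2 and Psme2b. By more than 1.3-fold 2 members were higher and 2 lower, where 14% and 12.3% of all genes were. Without WTL + JSH23 replicate 3, 8 were higher and 13 lower, and without WTL replicate 5 the median was 0.003.

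Psmd5 again rose most, from 28.7, 28.8 and 27.8 CPM to 47.9, 43.6 and 48.4, by 0.71 ± 0.05 (adjusted p = 2.53e-10). Psmd11 rose by 0.43 ± 0.05 (adjusted p = 2.59e-07) to 134, 136 and 155 CPM, with WTL + JSH23 replicate 3 the highest, and Psmd1, the large scaffold of the base, and Psmd8, a lid subunit, each rose by 0.24. Psma6 fell by 0.44 (SE 0.05, adjusted p = 7.43e-08), to values that did not overlap those of WTL. Psme2 fell by 0.36 (SE 0.04), from 736, 753 and 698 CPM to 560, 562 and 580, and Psme1 by 0.35 (SE 0.04), from 402, 404 and 391 to 305, 311 and 322, both without overlap. Psme2b showed the largest fall, 0.75 (SE 0.09), from 24.2, 23.3 and 21.3 CPM to 14.9, 14.8 and 11.1. Psmd14 (0.01 ± 0.05, adjusted p = 0.936) gave no call, and Psmb7 fell by 0.13 (SE 0.04, adjusted p = 0.0112), which became 0.002 with library totals.

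Whether the LPS change itself differed with JSH-23 was tested as an interaction, the LPS change after JSH-23 minus that without it. Of the members 0 were higher and 11 lower, where 9.54% of all genes were higher and 8.44% lower. The median was -0.12 against 0.03 for all genes, and 40 of the 46 values were negative, 15 of 15 in the core and 15 of 17 in the cap, where 46.2% of all genes were negative. With library totals 28 members were negative (12 of 15 in the core and 9 of 17 in the cap), where 31.9% of all genes were, and on TPM 21 were (10 and 4), where 30.1% were. The LPS changes of the 46 genes with and without JSH-23 had the same sign in 44, and across these genes, which are not independent replicates, Pearson's r was 0.859 and Spearman's rho 0.872, beside 0.827 and 0.842 over all genes. By more than 1.3-fold 0 members were higher and 1 lower, where 5.26% and 3.18% of all genes were.

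Psma6 had the largest negative interaction among the 11, -0.50 ± 0.07 (adjusted p = 2.15e-05), a rise of 2.37-fold without JSH-23 against 1.68-fold after it, and was the only member called lower under all 5 scalings. Psmg4 followed with -0.36 ± 0.10 (adjusted p = 0.0160). It had 11.7, 11.4 and 12.7 CPM in WT and 14.6, 15.3 and 15.8 in WTL, without overlap, but 12.9, 13.7 and 13.8 in WT + JSH23 and 12.7, 13.4 and 14.4 in WTL + JSH23, which overlapped. Psmd14 came next with -0.26 ± 0.07 (adjusted p = 0.00873) and Psmb7 with -0.23 ± 0.06 (adjusted p = 0.00581). Psmb7 had 68.1, 69.1 and 67.0 CPM in WT, 96.2, 96.0 and 93.3 in WTL, 75.0, 70.3 and 74.5 in WT + JSH23, and 85.8, 87.4 and 88.5 in WTL + JSH23, so that LPS separated the groups on both backgrounds.

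The other genes with a smaller LPS change after JSH-23 were Psma2, Psma3, Psma7, Psmb4, Psmd12, Psme1 and Psme2, at -0.22 to -0.18. No base subunit was among the 11. Psmd11 (0.07 ± 0.07, adjusted p = 0.58) and Psmb6 (-0.20 ± 0.07, adjusted p = 0.0703) did not pass, and the interval of Psmd11 (95%, -0.10 to 0.23) does not show equal responses. The count was 6 without WTL + JSH23 replicate 1 and 6 without WTL replicate 5, 12 without WTL + JSH23 replicate 3, and 1 with library totals.

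**Figure D3:**
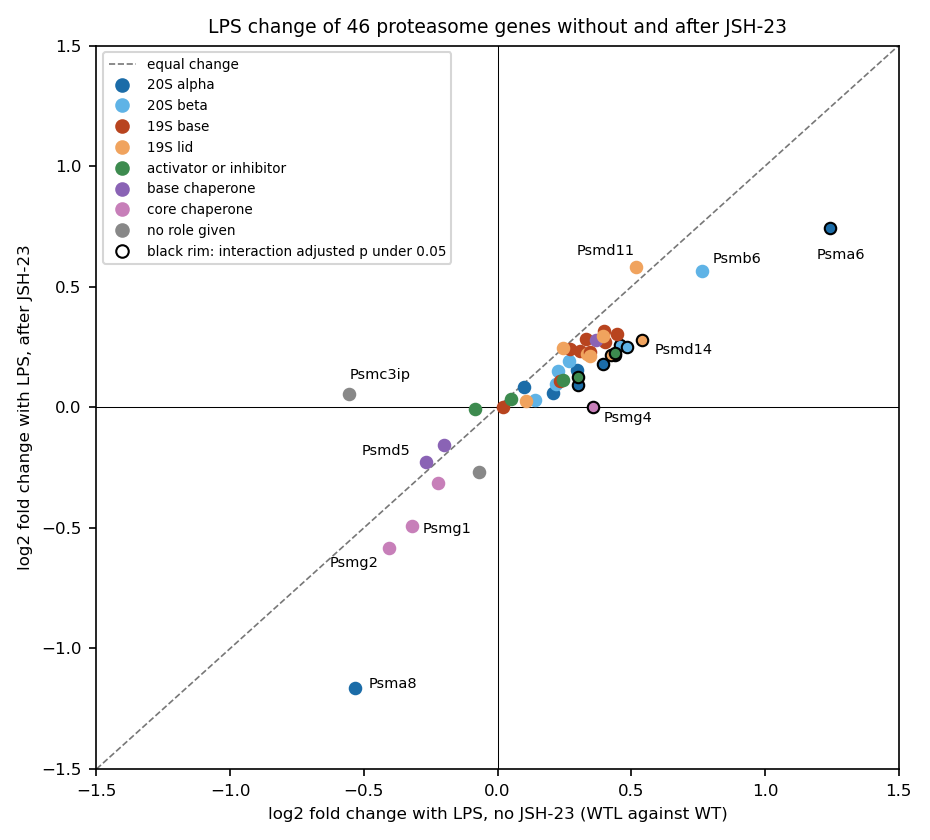
LPS log2 fold change of each of the 46 genes without JSH-23 (x axis) and after JSH-23 (y axis), coloured by role, with black rims for an interaction at adjusted p under 0.05 and a dashed line of equal change. Most members with positive changes lie below the line, with Psma6 at 1.24 and 0.74, while Psmd11 lies just above it at 0.52 and 0.58.

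Ratios within a library do not depend on its scaling, so each constitutive catalytic subunit was set beside its immunoproteasome counterpart on TPM. In WT, Psmb8, Psmb9 and Psmb10 were at 760.0, 274.3 and 526.6 TPM, and, in the same group, the ratio of Psmb6 to Psmb9 was 1.03 to 1.11, of Psmb7 to Psmb10 0.217 to 0.237 and of Psmb5 to Psmb8 0.270 to 0.275. Psmb5, Psmb7, Psmb8 and Psmb9 have fractional counts, and exons of Psmb9 overlap those of Tap1, so these ratios carry that uncertainty. All 3 ratios were higher with LPS and higher again with JSH-23. Psmb6 to Psmb9 was 1.60 to 1.64 in WTL, 1.69 to 1.80 in WT + JSH23 and 2.47 to 2.92 in WTL + JSH23, the last without overlap with any other group. Psmb5 to Psmb8 was 0.296 to 0.302, 0.399 to 0.415 and 0.455 to 0.492, and Psmb7 to Psmb10 was 0.270 to 0.292, 0.305 to 0.330 and 0.344 to 0.392, in the same order.

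For each ratio the groups did not overlap in any of the 4 pairwise comparisons, at an exact two-sided permutation p of 0.1, the smallest that 3 against 3 libraries allow. JSH-23 raised the mean ratios by 1.40-fold to 1.62-fold without LPS and by 1.33-fold to 1.63-fold with it. The immunoproteasome genes themselves were lower with JSH-23, Psmb8 by -0.29, Psmb9 by -0.27 and Psmb10 by -0.38 without LPS and by -0.47, -0.48 and -0.50 with it, all 3 passing in both comparisons. With LPS alone Psmb9 and Psmb10 were each at 0.17 and passed, but turned to -0.16 and -0.16 with library totals, and Psmb8 at 0.07 did not pass.

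**Figure D4:**
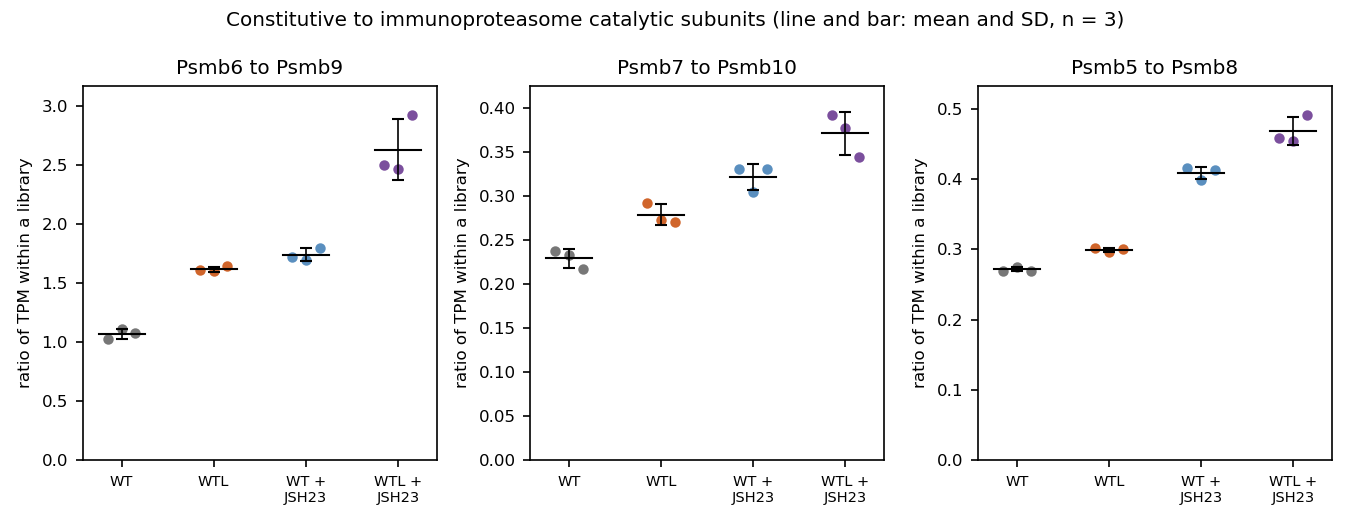
Ratio of the TPM of each constitutive catalytic subunit to that of its immunoproteasome counterpart in each library (points), with mean and SD of each group of 3. All 3 ratios are lowest in WT and highest in WTL + JSH23, and Psmb6 to Psmb9 goes from 1.03 to 1.11 up to 2.47 to 2.92.

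Genes that work with the proteasome were taken from lists written from general knowledge. With LPS 31% of all genes were higher and 34.7% lower, and with JSH-23 alone 18.8% and 22.1%, as above, and the counts in lists of this size are given as a description. They are on the TMM scale. With library totals the median of all genes was -0.38 with LPS instead of -0.05. The LPS counts below therefore carry the scaling limit given for the members. Of 9 further proteasome proteins tested, 6 were higher and 2 lower with LPS, led by Txnl1, a thioredoxin on the cap (0.92 ± 0.05), and the ubiquitin receptor Adrm1 (0.51), and 4 were higher and 1 lower with JSH-23 alone. Pomp, which matures the core, was at 0.13 ± 0.04 with LPS (-0.20 with library totals) and fell by 0.32 with JSH-23 alone and by 0.41 under LPS. Ecpas, a scaffold of the 26S particle, rose by 0.43 with JSH-23 alone and by 0.79 under LPS, and its interaction was 0.36 ± 0.06. All 6 ubiquitin genes and E1 enzymes were higher with LPS, with the E1 enzyme Uba6 at 0.87 ± 0.06, and with JSH-23 alone 2 were higher and 1 lower.

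Of 10 shuttle factors and p97 partners, 7 were higher and 2 lower with LPS, with Vcp, the p97 ATPase, at 0.56 ± 0.04 and its cofactor Nploc4 at 0.43. With JSH-23 alone 8 were higher and 0 lower, against 18.8% and 22.1% of all genes, and Zfand2a, a stress-inducible proteasome partner, rose by 1.10 ± 0.06, and by 1.17 under LPS. Of 10 regulators of proteasome genes, 5 were higher and 5 lower with LPS, against the same 31% and 34.7% of all genes. Nfe2l1, which encodes Nrf1, rose by 0.46 ± 0.04 with LPS and by 0.45 ± 0.04 after JSH-23. Maff, a small Maf partner of Nrf factors, rose by 2.79 ± 0.06 and Nfe2l3, a relative of Nrf1, fell by 1.73. With JSH-23 alone 4 of the 10 were higher and 2 lower. Mafg rose by 0.84 and Nfe2l2, which encodes Nrf2, fell by 0.49. With JSH-23 under LPS Bach1, a repressor of antioxidant response elements, rose by 0.88.

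**Figure D5:**
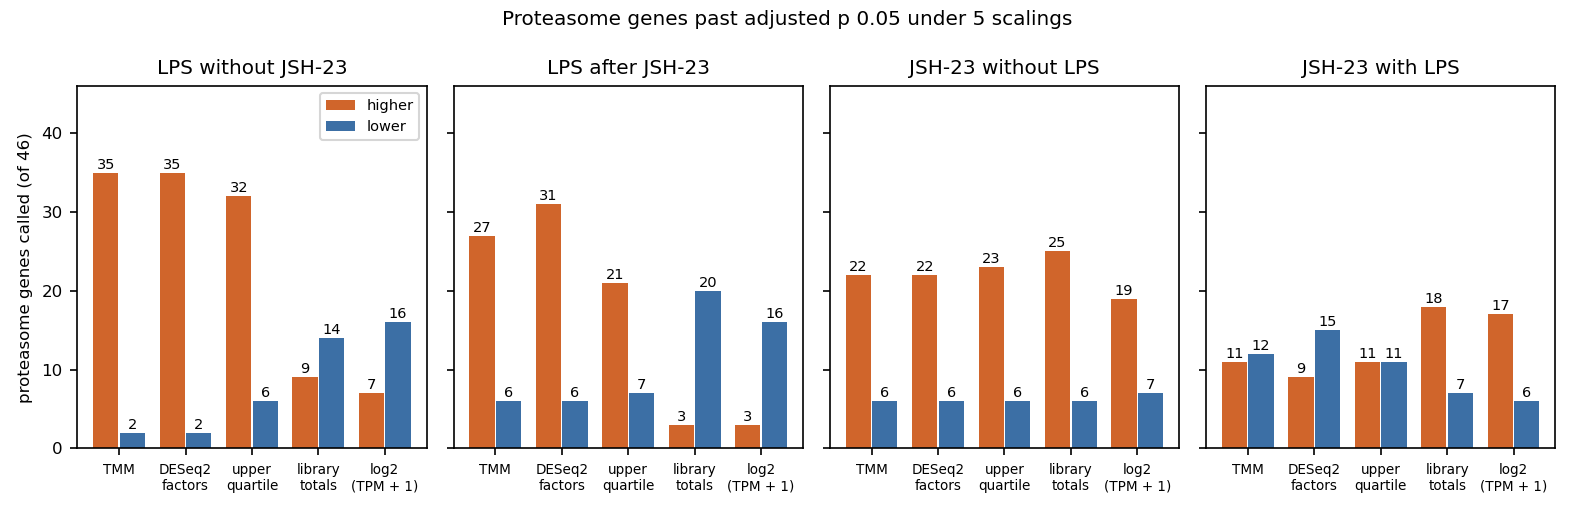
Number of the 46 genes called higher or lower at adjusted p under 0.05 in 4 comparisons under 5 scalings. For LPS the balance turns from 35 higher and 2 lower with TMM to 9 and 14 with library totals, whereas for JSH-23 without LPS it stays near 22 and 6.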

How the data were processed

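RNA-seq was measured in 12 libraries of mouse BMDC. The authors trimmed reads with Trim Galore, aligned them to mm10 with STAR (2.6.0c in the submitters' processing notes, another build of that release in the study's reporting summary) and estimated expression with RSEM; the GENCODE release is not given in the sources used here, and the labels name rRNA depletion where the methods name poly(A) selection. The deposited expected counts divide multi-mapping reads between genes, so the values of 15 members with fractional counts (Psma3, Psma4, Psma5, Psmb3, Psmb5, Psmb7, Psmc3, Psmc3ip, Psmd1, Psmd11, Psmd13, Psmd2, Psme2, Psme2b and Psmg3) are uncertain where near copies share reads. Exons of 9 members overlap those of another coding gene, on the same strand for Psmd1, Psme2b and Psmg3. The deposited TPM were computed by the authors and were used for levels and ratios.

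Names and positions came from GENCODE M21, which matched 55154 of 55335 identifiers without version. Expected counts were rounded. After filterByExpr 14357 genes, all 46 members included, were scaled by TMM (factors 0.859 to 1.12) and tested with the edgeR 4.0.16 quasi-likelihood F-test in R 4.3.3 over all 12 libraries (8 residual degrees of freedom), with Benjamini-Hochberg adjustment over all genes. Calls used adjusted p under 0.05, with a further rule of 1.3-fold. CPM are counts over the TMM-scaled library size. SE is the size of the change divided by the square root of F. Tested on simulated data for WTL against WT over 14357 genes, 92% of 50 genes changed 1.3-fold and 100% of 50 changed 1.5-fold were recovered, and 0.0494% of unchanged genes were called. For the interaction 70% and 86% were recovered. In the simulation 14157 genes were unchanged and the rest were changed in WTL alone. In the data 31% of genes were higher and 34.7% lower with LPS, so these rates do not cover the error from scaling. With that many calls the Benjamini-Hochberg adjustment lets larger raw p values pass than in the simulation. The 0.0494% is therefore not the share of unchanged genes called in the data, which was not estimated. Alternatives were DESeq2 1.42.0, limma 3.58.1 on log2(TPM + 1), other scalings and filters, and each library left out. No source says that replicates came from separate animals beyond calling them biological, so p values measure the spread between these libraries.

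Members and lists were chosen with earlier results of these data known. Named were 19 fixed genes, the 4 largest rises and falls per comparison among members at adjusted p under 0.05 and at least 10 CPM, and 2 genes per list. The position of Nfkbia and the robustness over scalings were chosen after the values were seen. Paaf1 was not matched by symbol.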

Additional observations from a re-analysis of the deposited data

Results flagged for a closer look

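The LPS change differed with JSH-23 (edgeR interaction, adjusted p under 0.05, n = 3 libraries per group) for 11 members, all with a smaller change after JSH-23. The values on the log2 scale were -0.50 for Psma6, -0.36 for Psmg4, -0.26 for Psmd14, -0.23 for Psmb7, -0.22 for Psma2, -0.21 for Psme2, -0.21 for Psma3, -0.21 for Psmd12, -0.21 for Psma7, -0.20 for Psmb4 and -0.18 for Psme1. With library totals only Psma6 of these was called. Of the immunoproteasome genes, Psmb9 had -0.21 and Psmb8 -0.18, and Psmb8 lost the call in 5 of the 12 fits that leave out a library and Psmb9 in 1. Among the ubiquitin and proteasome-associated genes named here, Uba6 had -0.30, the ubiquitin-ribosomal fusion gene Rps27a -0.17 and the shuttle factor Zfand5 -0.21, while the scaffold Ecpas had 0.36. Of the regulators, Ddi2, the protease that activates Nrf1, had 0.42 and Bach1 0.49. The cytokine genes Il6 and Tnf differed in opposite directions, with -1.21 and 1.08. Groups of 3 libraries are too small for the test of single outlying libraries.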

How the results depend on the processing

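The direction of the LPS changes rests on the scaling between libraries, and depth limits the values of Psma8 and Psmc3ip, which had few counts. For WTL against WT the members' median (0.30) was 0.33 with DESeq2 factors or the DESeq2 test and 0.22 with upper quartile factors, and 6 genes were lower with upper quartile factors or a mean of at least 1 CPM. With library totals the median was -0.032, with 23 calls (9 higher, 14 lower), and on log2(TPM + 1) with limma -0.038, with 23 (7 and 16). The median minus that of all genes was 0.29 without a filter and 0.22 on TPM, both chosen after seeing the data. For WTL + JSH23 against WT + JSH23 the median was 0.083 with upper quartile factors, -0.071 with totals (3 higher, 20 lower) and -0.028 on TPM (19 calls, 3 and 16), where the difference from all genes was 0.13. For WT + JSH23 against WT it was 0.15 with totals. For WTL + JSH23 against WTL it was 0.10 with totals (18 higher, 7 lower) and 0.10 on TPM (17 and 6), with a difference from all genes of 0.0054. For the interaction totals left 1 call (1 lower, median -0.033) and TPM 2 (1 higher, 1 lower, median 0.0098, difference -0.10). With the further rule of 1.3-fold the calls, in the order above, were 15 (14 higher, 1 lower), 6 (3 and 3), 3 (2 and 1), 4 (2 and 2) and 1 (1 lower).

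With library totals 17 members turned sign for WTL against WT (5 of them called in opposite directions), 23 for WTL + JSH23 against WT + JSH23 (2), 5 for WT + JSH23 against WT (0), 12 for WTL + JSH23 against WTL (0) and 12 for the interaction (0), and on TPM 19 (7), 19 (1), 4 (0), 11 (0) and 19 (0). Among the genes named by the rule and called under either setting, those that turned sign, given with library totals and then TPM, were for WTL against WT Psmb9 (-0.16 and -0.18), Psmb10 (-0.16 and -0.14), Psmb5 (-0.11 and -0.12), Psmb8 (-0.26 and -0.27), Psme1 (-0.029 and -0.026), Psme3 (-0.084 and -0.037), Psmf1 (-0.28 and -0.20), Pomp (-0.20 and -0.10) and, on TPM alone, Psmg4 (-0.042). For WTL + JSH23 against WT + JSH23 they were Psmb5 (-0.14 and -0.11), Psmb10 (-0.19 and -0.16), Psme1 (-0.11 and -0.074), Psme3 (-0.12 and -0.10), Pomp (-0.19 and -0.14) and, with totals alone, Psme2 (-0.012), Psmf1 (-0.21) and Psmd4 (-0.0098). For WTL + JSH23 against WTL it was Psmb7 (0.0017 with totals).

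Leaving out 1 library at a time moved the count of lower genes for WTL against WT between 2 and 4, that for WTL + JSH23 against WT + JSH23 between 4 and 6 (median 0.13 to 0.20, difference from all genes 0.15 to 0.21), the higher genes for WT + JSH23 against WT between 16 and 23, the median for WTL + JSH23 against WTL between -0.045 and 0.0031, and the interaction calls between 6 and 13, all lower. DESeq2 gave 0 higher and 14 lower members for the interaction. Same-numbered libraries of WT and WTL had correlations of deviations of 0.0505, -0.0306 and 0.0732, within the -0.137 to 0.0844 of differently numbered ones. Same-numbered libraries of the JSH-23 groups had 0.210, 0.0671 and 0.350, against -0.279 to 0.162 for differently numbered ones. Whether the replicate numbers pair the libraries was therefore not settled. With a replicate block the calls were 38 (35 higher, 3 lower) for WTL against WT, 35 (29 and 6) for WTL + JSH23 against WT + JSH23 and 13 lower for the interaction. No paired analysis was possible for the JSH-23 comparisons because those groups share no replicate number with WT and WTL.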
